A study of Mus musculus with 4 samples.

Results

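The genes of 9 proteins that bind poly(A) tails or work with the proteins that do were examined in mouse embryonic stem cells (ESCs) depleted of CNOT1. They were taken by name from the gene table as Pabpc1, Pabpc4, Pabpn1, Paip1, Paip2, Paip2b, Larp1, Larp4 and Larp4b, and all 9 were found among the 50559 genes listed. E14 ESCs, a mouse line grown on gelatin with knockout serum replacement and leukemia inhibitory factor, received an siRNA against Cnot1 (siCnot1) or a non-targeting siRNA (siNT). The siRNA was delivered by lipid transfection at 150 nM, the cells were collected after 48 h, and each group has 2 libraries described in the study's methods as independent biological replicates. The study's methods describe its ESCs as carrying a MERVL-driven tdTomato transgene, a reporter of the 2-cell-like state. Libraries were made from poly(A)+ RNA, so an RNA was sampled through its tail. The labels do not say which of the study's Cnot1 siRNAs was used, and effects of an siRNA beyond its target cannot be told apart from those of losing Cnot1.

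A poly(A) tail is coated in the nucleus by PABPN1 and in the cytoplasm by PABPC proteins, which bridge the tail to the translation factor eIF4G at the cap and also contact the enzymes that shorten the tail. PAIP1 promotes the activity of PABPC, PAIP2 and PAIP2B compete for it and dampen translation, and the La-related proteins LARP1, LARP4 and LARP4B bind PABPC and mRNA and guard tails or messages. CNOT1 holds together CCR4-NOT, the main cytoplasmic deadenylase. The comparison of siCnot1 with siNT asks how the mRNA of these tail-binding proteins stood after that scaffold was reduced.

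Some facts of the libraries bear on every value. They held 32135824 to 32557440 counts on genes, and 18144 genes had enough counts to be tested with edgeR's quasi-likelihood test. Levels are CPM, counts scaled to library size, after TMM scaling (normalized CPM), a method that sets library sizes by the bulk of genes, and a gene was called at a Benjamini-Hochberg adjusted p under 0.05 over all genes tested. By that rule 29.7% of the tested genes were called, 15% higher and 14.7% lower in siCnot1. Cnot1 itself read 913 and 986 normalized CPM in the siNT libraries and 185 and 192 in the siCnot1 libraries, which is -2.33 on the log2 scale (standard error 0.0587, edgeR adjusted p = 2.37e-18). Marker sums are given as CPM scaled by library totals, without TMM, whereas the calls beside them are from the TMM fit unless stated. Summed ESC markers ranged from 6252 to 6574 CPM in siNT and from 5641 to 5832 in siCnot1. Of the 8 markers, 6 were called lower (3 with library totals as the scaling). Summed markers of 2-cell-like cells, a minor population of ESC cultures, ranged from 60.2 to 61.4 and from 166 to 171 CPM. Of these 7, 5 were called higher. The 6 primitive endoderm markers summed to 12.2 to 14.3 and 22.8 to 23.9 CPM with 2 called higher. The 6 trophectoderm markers summed to 35.8 to 35.9 and 27.8 to 33.5 CPM with 2 called lower. The 6 fibroblast markers summed to 1.39 to 1.97 and 4.19 to 4.42 CPM with 1 called higher. Of them, 3 had at most 3 counts in every library, 2 of these with none. The part of these shifts in the differences below was not tested. In bulk RNA, fewer cells of a type and less RNA per cell cannot be told apart.

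Of the 9 genes, 3 were lower in siCnot1, namely Paip2, Pabpc4 and Larp1, and 0 were called higher by edgeR, DESeq2 or limma-voom. At an unadjusted p under 0.05 from edgeR, 4 were lower and 0 higher. Each of the 3 fell by a modest amount, 12.3% for Larp1, 13.9% for Pabpc4 and 15.7% for Paip2. Paip2b, the close relative of Paip2, was not called and its interval spans 0. Pabpc1, the most abundant of the 9 by level per length, was not called either. The log2 fold changes of the 9 genes ran from -0.25 to 0.054 with a median of -0.16, beside a median of 0.0084 over all tested genes. The 3 calls among 9 genes stand beside the 14.7% of tested genes called lower and the 29.7% called in either direction. These shares are over genes of all levels, whereas the 9 lay at or above the 70.4th percentile of mean level. The groups did not overlap for 5 of the 9 genes, each lower in siCnot1, and did not overlap for 63.9% of all tested genes. None of the 9 passed the threshold stated in the study's methods, an unadjusted p of at most 0.05 together with a change of at least 1 on the log2 scale in either direction, which 7.98% of tested genes passed. It was applied here to edgeR values, whereas the study used DESeq2.

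These are small differences in abundant transcripts. The absolute log2 fold change of each of the 9 genes was below the median over all tested genes of 0.257, from the 5.94th percentile for Larp4b to the 48.3rd for Paip2. Their mean normalized CPM lay between the 70.4th percentile for Pabpn1 and the 99.9th for Pabpc1, and the standard errors were correspondingly narrow, 0.053 for Pabpc1 and 0.10 for Pabpn1 on the log2 scale. The calls depended on the scaling. With library totals in place of TMM, the median log2 fold change of all tested genes moved up by 0.107 to 0.12, none of the 9 was called lower, and Paip2b was called higher (log2 fold change 0.16, edgeR adjusted p = 0.0312, range over the alternatives 0.0312 to 0.939). Leaving out 1 library at a time, the number called lower was 0 without siNT replicate 1, 2 without siNT replicate 2, 0 without siCnot1 replicate 1 and 1 without siCnot1 replicate 2. Larp1 was called in none of these 4 fits, Pabpc4 only without siNT replicate 2, and Paip2 without siNT replicate 2 and without siCnot1 replicate 2.

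Levels can be compared between genes only per length, here as FPKM, the counts per kilobase of the exon length listed in the table with library totals as the scaling, so that values of siNT and siCnot1 are better compared as normalized CPM. Pabpc1, the main cytoplasmic poly(A)-binding protein, had 799.6 ± 44.8 FPKM (SD, n = 2) in siNT, far above the other 8. Paip2 followed with 67.2 ± 0.797, then Paip2b with 59.5 ± 1.84, Pabpc4 with 59.2 ± 2.77 and Larp1 with 51.7 ± 0.444 FPKM (SD, n = 2). Larp4 had 33.0 ± 1.75, Pabpn1 23.1 ± 3.46, Paip1 10.4 ± 0.498 and Larp4b 3.49 ± 0.139 FPKM (SD, n = 2). Of the neighbours in this order, the siNT libraries overlapped only for Paip2b and Pabpc4.

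The order depends on the length taken for each gene, since the listed length joins the exons of all isoforms in its own annotation. That annotation differs from GENCODE M21. For Paip2b the listed length of 3325 bases is 0.835 times that of its longest M21 transcript, 3982 bases. For Larp4b the listed length of 37060 bases is 6.48 times that of its longest GENCODE M21 transcript, 5720 bases, and for Pabpc4 and Paip2 the ratio is 2.32 and 2.06. With the longest transcript as length, a choice made after seeing the data, Larp4b had 22.6 FPKM in siNT, close to Pabpn1 with 23.3 and above Paip1 with 19.2. Pabpc4 and Paip2 then stood level at 138 FPKM, and Paip2b had 49.7. Pabpc1, with 814 FPKM, was the highest under both lengths.

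**Figure D1:**
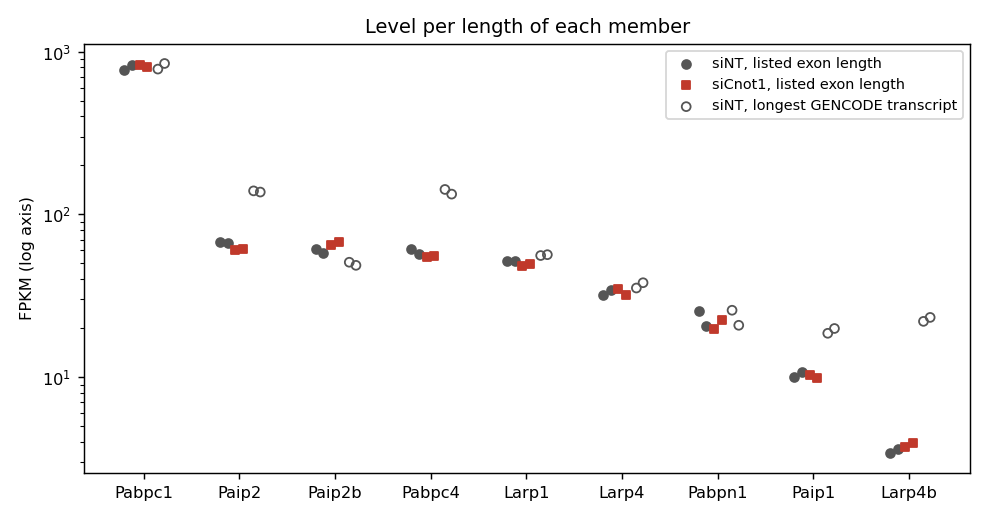
The plot gives the level per length of each gene on a log axis in FPKM, with filled circles for the 2 siNT libraries and squares for the 2 siCnot1 libraries by listed exon length, and open circles for siNT by the longest GENCODE transcript. Pabpc1 stands at 799.6 FPKM in siNT, and Larp4b moves from 3.49 to 22.6 FPKM with the length used.

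Sequences around annotated transcription starts are shown because the mRNAs of tail-binding proteins are known for features at their starts. PABPC1 mRNA carries an A-rich stretch in its 5′ leader through which the protein limits its own synthesis, and LARP1 binds mRNAs that open with a C followed by a run of pyrimidines, the terminal oligopyrimidine (TOP) motif. RefSeq start windows of 300 bases on GRCm38.p6, matched by symbol, were examined for 7 of the 9 genes. No window was examined for Pabpc1 or Paip2, so nothing is said here about their starts. Each line below gives 10 bases before the start and 20 from it on, on the transcribed strand from 5′ to 3′, for both called genes with a window, for the 1 gene with a TOP-like start, and for Paip2b. Capitals mark a run of A in Pabpc4 and the pyrimidine run from the start base in Paip1.
Pabpc4 (chr4:123282901-123282930, plus strand): aaaaagaaaagaaaagaagaggAAAAAAAA
Larp1 (chr11:58009054-58009083, plus strand): aggcgcgccggagccttctgcccggcgcgc
Paip1 (chr13:119428590-119428619, plus strand): cagtctcgcaCTTTTCTCCggagggaccag
Paip2b (chr6:83831722-83831751, minus strand): cgagacgcgcgtgtgaggccgaggtacctc

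The Pabpc4 start lies in an A-rich stretch. A run of 8 A on the transcribed strand (AAAAAAAA) fell within the 30 bases shown for Pabpc4, as it did in 0.189% of 32851 mouse windows, and the longest A run of its whole window was 14 bases, a length reached by 1.03% of windows. Over the 300 bases, AAAAAAAA occurred in 3.80% of windows and its complement TTTTTTTT in 4.34%, and Pabpc4 was the only one of the 7 genes with AAAAAAAA and none had TTTTTTTT. A TOP-like start, taken as C at the start base followed by at least 4 bases that are each C or T, was found in 2.51% of windows. The first of 2 Paip1 starts met it with a run of 9 pyrimidines, and the other 6 genes with a window did not. Annotated starts need not be the bases used in these cells, and only 3 of 10 established TOP genes with a window met the definition. Among tested genes, 19.0% of the 399 with a TOP-like start were called lower, beside 15.1% of the 12422 with a window and no such start, and their median log2 fold changes were 0.0075 and 0.018.

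The cytoplasmic poly(A)-binding proteins are Pabpc1 and Pabpc4, the second of which was first described as an inducible form in activated T cells. Pabpc1 (GRCm39 chromosome 15, 36595902 to 36609825, minus strand) read 2286 and 2476 normalized CPM in siNT and 2277 and 2237 in siCnot1. The lower siNT library and the higher siCnot1 library were almost level, although the groups did not overlap. The log2 fold change was -0.077 (95% interval -0.19 to 0.033, edgeR adjusted p = 0.3), and it was 0.030 with library totals. Pabpc4 (chromosome 4, 123172722 to 123192718, plus strand) read 459.8 and 430.4 normalized CPM in siNT and 377 and 389.8 in siCnot1. Both siCnot1 libraries were below both siNT libraries, and the means were 445 ± 20.8 and 383 ± 8.98 (SD, n = 2). Its log2 fold change was -0.22 (standard error 0.0556, 95% interval -0.33 to -0.10, edgeR adjusted p = 0.00482). The call was lost with library totals (adjusted p = 0.127, range over the alternatives 0.000837 to 0.127).

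Both genes have near-identical copies elsewhere in the genome, to which reads could be assigned. The 7 listed genes whose GENCODE M21 transcripts matched Pabpc4 at 95% identity or more over at least 150 bases together held at most 3.49% as many counts as Pabpc4 in a library, and the 1 such gene of Pabpc1, Gm16580, held at most 0.187%. After adding those copies, an alternative chosen after seeing the data, the log2 fold change of Pabpc4 was -0.22 (edgeR adjusted p = 0.00436, against the range given above) and that of Pabpc1 -0.078. In all, 10 genes matched Pabpc4, and those not listed could not be counted. Among these was the longest match, Gm10110, with 2201 bases at 98.955% identity. The ratio of Pabpc4 to Pabpc1 FPKM within a library, which no scaling between libraries can move, came to 0.0797 and 0.0689 for the siNT libraries and to 0.0656 and 0.0691 for the siCnot1 libraries. These groups overlapped (exact two-sided permutation p = 0.667, where 2 libraries against 2 cannot give less than 0.333), so a shift between the paralogs was not resolved.

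Pabpn1 (chromosome 14, 55131600 to 55136384, plus strand) encodes the nuclear poly(A)-binding protein, which sets tail length during polyadenylation. It read 47.5 and 38.4 normalized CPM in siNT and 33.9 and 39.1 in siCnot1. The first siNT library stood above the other 3, and the groups overlapped. The log2 fold change was -0.23 (standard error 0.10, 95% interval -0.45 to -0.019), with an edgeR adjusted p of 0.0948, and the gene was not called. It went from -0.077 without siNT replicate 1 and -0.14 without siCnot1 replicate 1 to -0.35 without siCnot1 replicate 2 and -0.38 without siNT replicate 2. Its counts are uncertain for another reason, since 1441 of its 1793 exon bases (80.4%) are shared on the same strand with Bcl2l2, a cell survival gene whose annotated span covers Pabpn1 and which itself held 787 to 924 counts per library. How reads in the shared exons were assigned is not given in the sources used here. A transcript of Gm20521, a gene not listed, matched Pabpn1 over 381 bases at 100% identity. Whether it lies at the same locus was not examined.

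PAIP1 links PABPC to the translation initiation machinery, whereas PAIP2 and PAIP2B displace PABPC from the tail and from eIF4G. Paip1 (chromosome 13, 119565136 to 119596859, plus strand) read 49.2 and 52.7 normalized CPM in siNT and 46.5 and 44.9 in siCnot1. The siCnot1 libraries were the lower ones without overlap, but the log2 fold change of -0.16 (95% interval -0.33 to 0.015, edgeR adjusted p = 0.167) was not called. Paip2 (chromosome 18, 35731649 to 35750239, plus strand) read 227 and 224 normalized CPM in siNT and 187 and 193 in siCnot1. The replicates of each group lay close together and the groups were well apart, with means of 225 ± 2.64 and 190.0 ± 4.38 (SD, n = 2). Its log2 fold change of -0.25 (standard error 0.0566, 95% interval -0.36 to -0.13, edgeR adjusted p = 0.00183) was the most negative of the 9. With library totals it was -0.14 (adjusted p = 0.0557, range over the alternatives 0.000228 to 0.0683). Paip2b (chromosome 6, 83783040 to 83808723, minus strand) read 210.1 and 201 normalized CPM in siNT and 208 and 219 in siCnot1. Its groups overlapped, and its log2 fold change was 0.054 (95% interval -0.065 to 0.17, edgeR adjusted p = 0.527).

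Paip2 and Paip2b, the inhibitors of PABPC, were also compared within each library. The ratio of Paip2b to Paip2 FPKM was 0.898 and 0.874 for the siNT libraries and 1.08 and 1.10 for the siCnot1 libraries. Both siCnot1 libraries lay above both siNT libraries, and the mean ratio was 23.2% higher, at 1.09 ± 0.0144 beside 0.886 ± 0.0169 (SD, n = 2). The exact two-sided permutation p was 0.333, the smallest that 2 libraries against 2 can give, so this test cannot reach 0.05. The log2 change of the ratio was 0.30, and it lay between 0.28 and 0.32 when any 1 library was left out. The ratio does not depend on scaling between libraries, and another length per gene multiplies it by the same factor in every library. That factor sets which gene is the higher one: with the longest GENCODE transcripts, Paip2 stood above Paip2b in both groups, at 138 against 49.7 FPKM in siNT and 126 against 55.6 in siCnot1. The ratio of Paip1, the promoting partner, to the sum of both inhibitors came to 0.0782 and 0.0862 for siNT, and 0.0818 and 0.0757 for siCnot1, and these groups overlapped.

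**Figure D2:**
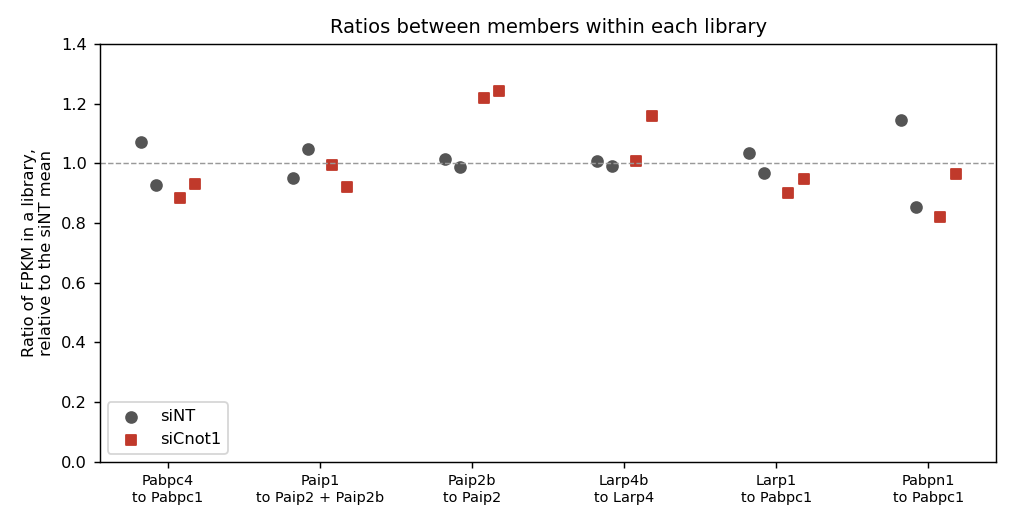
The plot gives 6 ratios of FPKM between genes, each library divided by the siNT mean of that ratio, with circles for siNT and squares for siCnot1. The ratio of Paip2b to Paip2 is 23.2% higher in siCnot1 without overlap, that of Larp1 to Pabpc1 differs by -7.59% without overlap, and the other 4 overlap. Groups of 2 libraries without overlap give an exact two-sided permutation p of only 0.333. The levels of 63.9% of all tested genes did not overlap either.

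The genes whose pattern over the 4 libraries was closest to that of Paip2 were sought among 1981 tested genes within 2-fold of its mean level, by the Euclidean distance of centred log2 normalized CPM. They were Rfc5, a subunit of the replication clamp loader, with a distance of 0.00827, Nsun2, an RNA cytosine methyltransferase, with 0.0107, and Prpf6, a splicing factor, with 0.0124. Their log2 fold changes were -0.25, -0.24 and -0.24. With 4 libraries this describes a likeness of values only.

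LARP1 binds PABPC and the caps of TOP mRNAs, and LARP4 and LARP4B bind A-rich sequence and PABPC and are known for protecting or lengthening tails. Larp1 (chromosome 11, 57899711 to 57952860, plus strand) read 384 and 389 normalized CPM in siNT and 333 and 345 in siCnot1. The groups were apart, with means of 386 ± 3.36 and 339 ± 8.40 (SD, n = 2). Its log2 fold change was -0.19 (standard error 0.0543, 95% interval -0.30 to -0.077, edgeR adjusted p = 0.0102), and with library totals -0.083 (adjusted p = 0.242, range over the alternatives 0.00219 to 0.242). The call was also lost in each fit that left out 1 library, with adjusted p between 0.0586 and 0.143. The ratio of Larp1 to Pabpc1 FPKM came to 0.0669 and 0.0626 for siNT, and 0.0583 and 0.0614 for siCnot1. It was lower in both siCnot1 libraries, a mean difference of -7.59% (exact two-sided permutation p = 0.333, the smallest possible here).

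Neither gene of the LARP4 pair was called. Larp4 (chromosome 15, 99867946 to 99914239, plus strand) read 239 and 258 normalized CPM in siNT and 242 and 226 in siCnot1. The groups overlapped, and the log2 fold change of -0.088 (95% interval -0.21 to 0.035, edgeR adjusted p = 0.291) became 0.019 with library totals. Larp4b (chromosome 13, 9143643 to 9224487, plus strand) read 131 and 138 normalized CPM in siNT and 132 and 142 in siCnot1. Its log2 fold change of 0.026 (95% interval -0.10 to 0.16, edgeR adjusted p = 0.807) was the smallest in size of the 9, and its sign turned in 2 of the fits that left out 1 library. The ratio of Larp4b to Larp4 FPKM came to 0.107 and 0.105 for siNT, and 0.107 and 0.123 for siCnot1, with overlap. Antisense to Larp4, the gene 2310068J16Rik shares 204 of its exon bases (2.81%) and held 5 to 13 counts, and the 2 near-identical copies of Larp4 held at most 0.146% as many counts as Larp4. Of the other genes that overlap one of the 9, Slc23a1 at Paip2, Gm22154 and Gm25788 at Pabpc4 and Gm51897 at Larp1 share no exon base with it.

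**Figure D3:**
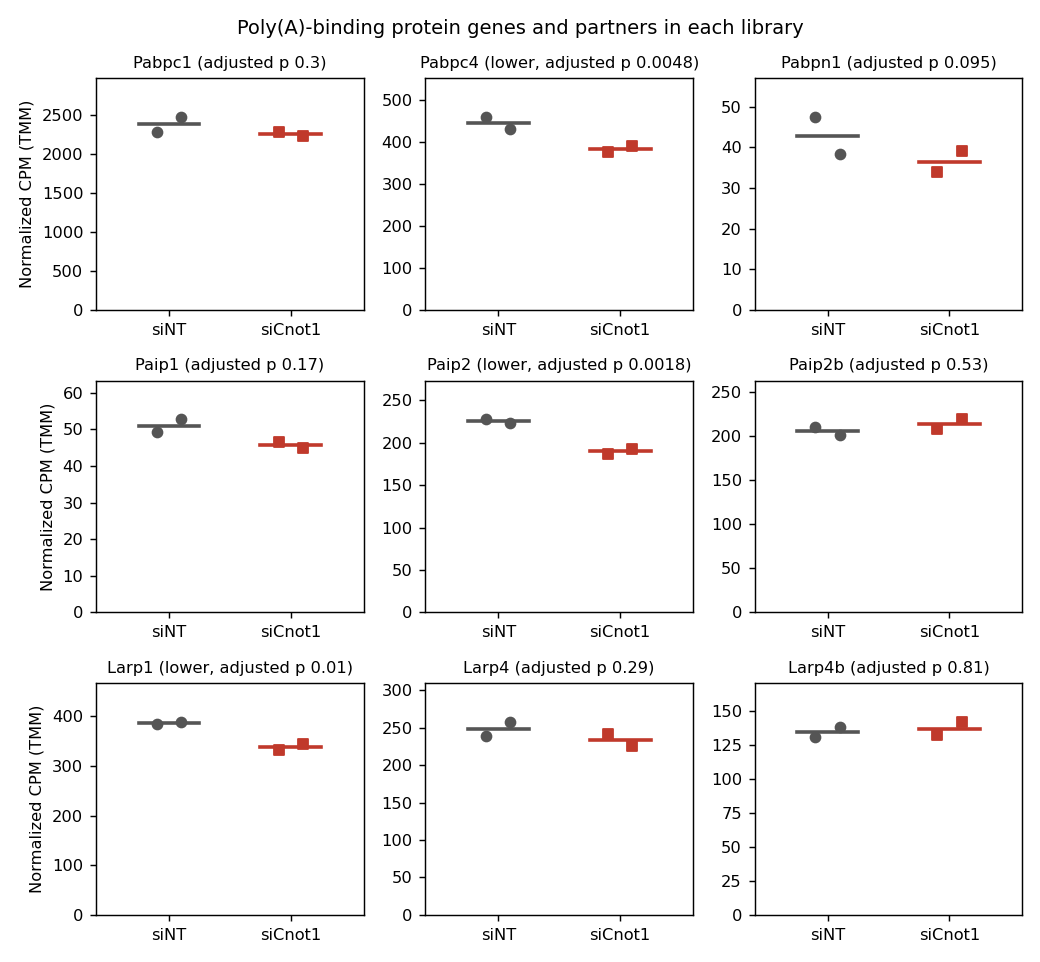
Each panel gives 1 gene in normalized CPM on an axis from 0, with a point per library, a line at the mean of the 2 libraries of each group and the edgeR adjusted p in the title. Both siCnot1 libraries lie below both siNT libraries for Paip2, Pabpc4 and Larp1, and also for Pabpc1 and Paip1, which were not called. The libraries of Paip2b, Larp4, Larp4b and Pabpn1 overlap.

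**Figure D4:**
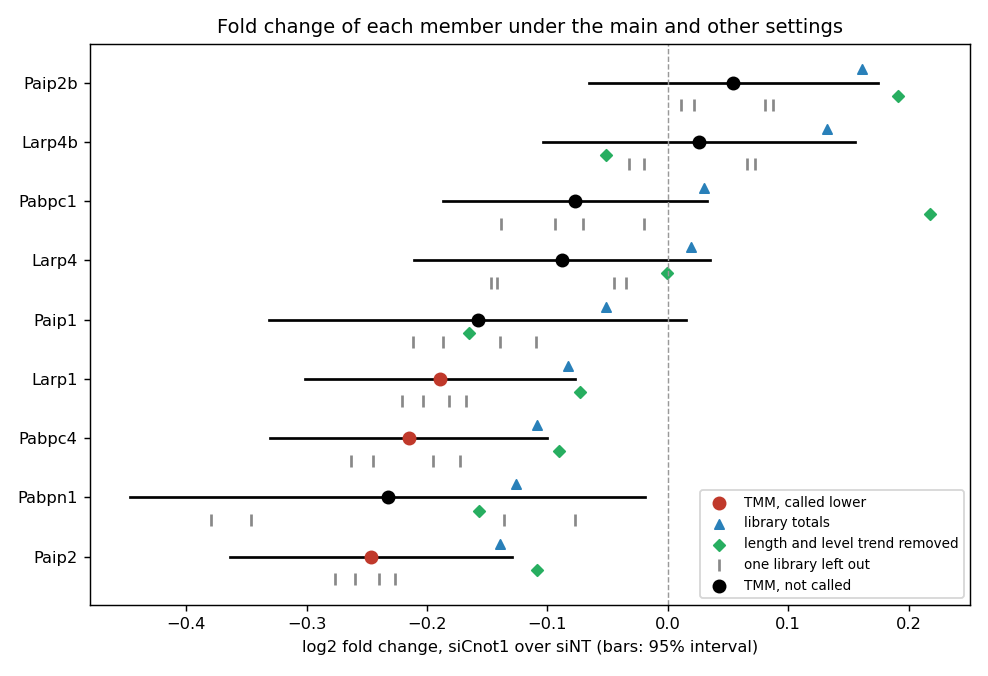
The plot gives the log2 fold change of siCnot1 over siNT for each gene with its 95% interval, beside values from library totals (triangles), after removing a trend with exon length and level and adding back the overall median (diamonds), and with 1 library left out (ticks). Library totals move each gene up, so that Pabpc1 goes from -0.077 to 0.030 and Paip2 from -0.25 to -0.14. Trend removal moves Pabpc1, at the upper edge of the levels in the trend, to 0.22.

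Long and short or abundant and rare genes did not move alike in this comparison, and the log2 fold changes of the 9 genes were therefore also computed after a smooth trend with exon length and mean level over all tested genes was subtracted and the overall median of 0.0084 added back. At the length and level of Pabpc1 that trend stood at -0.29, and Pabpc1 came to 0.22 on the adjusted log2 scale. Pabpc1 lies at the 99.9th percentile of mean level, so few genes as abundant were there to fix the trend. Paip2b came to 0.19. On the same adjusted scale Paip2 was at -0.11, Pabpc4 at -0.090 and Larp1 at -0.073, in each case nearer to 0 than before, while Paip1 and Pabpn1 were at -0.16. Larp4 came to -0.00094, and Larp4b changed sign, from 0.026 to -0.051. The trend used the listed exon length, which is 6.48 times that of the longest transcript for Larp4b, 2.32 times for Pabpc4 and 2.06 times for Paip2. No test was made on these values.

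Pabpc1 is one of the established TOP mRNAs, whose translation LARP1 controls, so it was set beside 15 other TOP mRNAs that do not encode ribosomal proteins. Of these, 14 were called lower and 0 higher, and their log2 fold changes ran from -0.61 to -0.14 with -0.32 as the median, beside the 14.7% of all tested genes called lower. The 3 with the smallest p were Eef1a1, the elongation factor that brings tRNA to the ribosome (log2 fold change -0.61, from 13643 ± 24.8 to 8913 ± 194 normalized CPM), Naca, a subunit of the nascent chain complex (-0.50), and Npm1, nucleophosmin (-0.42). The 1 gene not called was Eif3f, named after its value was seen, at -0.14 (edgeR adjusted p = 0.0549). All 15 log2 fold changes were below 0 under each scaling, with 12 called lower under library totals. Fewer than 14 were called lower in most fits that left out 1 library. Pabpc1, at -0.077, was above each of the 15, and its interval of -0.19 to 0.033 includes the value of Eif3f but not those of Eef1a1, Naca and Npm1. The difference between Pabpc1 and these genes was not tested. The 15 are abundant, with siNT means from 239 normalized CPM for Eif3f to 13643 for Eef1a1. Their values were not adjusted for the trend with exon length and level, which stood at -0.29 for Pabpc1. All tested genes are therefore an unlike background for this list.

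The other genes of the poly(A)-binding and La-related families were mostly low or not called. Of 7 further poly(A)-binding protein genes, Pabpc1l, Pabpc2, Pabpc5 and Pabpn1l had at most 9 counts in a library and were not tested. Of the 3 tested, Zc3h14, a nuclear poly(A)-binding zinc finger protein that restrains tail length, fell from 131 ± 6.03 to 72.3 ± 2.67 normalized CPM (SD, n = 2), a log2 fold change of -0.85 (edgeR adjusted p = 2.08e-09). It read 127 and 135 in siNT and 74.2 and 70.4 in siCnot1, further apart than any of the 9 genes on the log2 scale. Pabpc4l averaged 3.86 and 4.85 normalized CPM in siNT and siCnot1 and Pabpc6 averaged 4.28 and 3.54, and neither was called, with log2 fold changes of 0.33 and -0.27. Among 4 further La-related genes, Ssb, the La protein that binds the ends of new RNA polymerase III transcripts, fell from 328 ± 17.1 to 251 ± 2.88 normalized CPM (log2 fold change -0.39, edgeR adjusted p = 1.65e-05). Larp1b and Larp7 were not called, at 0.15 and -0.099, and Larp6 had at most 6 counts in a library.

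Of 17 genes of proteins that bind PABPC or meet it on the mRNA, 6 were called lower and 1 higher. Over all tested genes, 14.7% were called lower and 15% higher. That background was not matched to the 17 genes in level or exon length. The smallest p was that of Eif4b, a helicase cofactor in initiation, which read 1037 and 982 in siNT and fell to a mean of 718 ± 7.13 normalized CPM (log2 fold change -0.49, edgeR adjusted p = 2.72e-07), followed by that of Mkrn1, an RNA-binding ubiquitin ligase (-0.24). Tnrc6a, a scaffold of microRNA silencing that contacts both PABPC and CCR4-NOT, was the 1 called higher (0.19, adjusted p = 0.0213) and is named for that. Eif4g1, given for its role as the scaffold that PABPC binds at the cap, was not called, at -0.11 (adjusted p = 0.136). The median of the 17 was -0.078, and it turned to 0.028 with library totals, when 1 was called lower and 2 higher. Leaving out any 1 library gave 0 called higher, and 1 called lower, or 2 without siCnot1 replicate 2, and with no filter on low counts 0 were called higher.

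The 7 deadenylase genes outside CNOT1 gave 1 call, Cnot6l, a catalytic subunit of CCR4-NOT, which fell from 46.8 ± 1.74 to 37.3 ± 2.81 normalized CPM (SD, n = 2; log2 fold change -0.33, edgeR adjusted p = 0.00756), and which was not called with library totals (-0.22), with no filter on low counts, or without siNT replicate 1, siNT replicate 2 or siCnot1 replicate 1. Of 19 genes of nuclear cleavage and polyadenylation, where PABPN1 acts, 9 were called lower and 1 higher. Both lists stand beside 14.7% of all tested genes called lower and 15% called higher, a background not matched to them in level or exon length. Cpsf3, the endonuclease that cuts the pre-mRNA, fell from 147 ± 0.555 to 101 ± 2.63 normalized CPM (log2 fold change -0.55, edgeR adjusted p = 4.04e-07). Fip1l1 and Cstf2, which bind RNA around the poly(A) site, fell by 0.41 and 0.36 on the log2 scale. Rbbp6, a ubiquitin ligase of the cleavage machinery and the 1 gene called higher, is named for that and changed by 0.21. The median of the 19 was -0.10 and turned to 0.0035 with library totals, which called 4 lower and 3 higher. The number called was 3 lower without siNT replicate 1 or siCnot1 replicate 1 and 5 lower without siNT replicate 2, without siCnot1 replicate 2 or with no filter on low counts, and 0 were called higher in each of these fits.

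**Figure D5:**
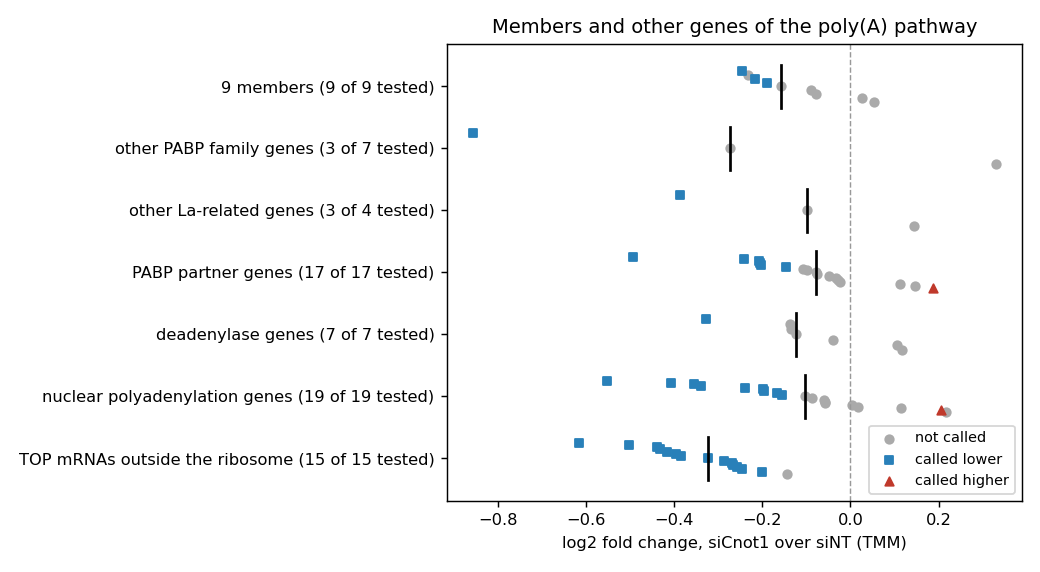
Each point is the log2 fold change of 1 tested gene under TMM scaling, in rows for the 9 genes and for 6 related lists, with squares for genes called lower, triangles for genes called higher and a black line at the median of each list. The TOP mRNAs lie between -0.61 and -0.14 with a median of -0.32, beside a median of -0.16 for the 9 genes.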

How the data were processed

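RNA-seq libraries of siNT and siCnot1 ESCs (2 per group) were analysed from the raw counts per gene that the authors deposited, without normalization or pooling. The submitters' processing notes name fastp 0.19.4, HISAT2 2.2.1, DESeq2 1.40.2 and mm10, but the gene positions in the table are those of GRCm39. The counting program and its strand setting are not given in the sources used here. GENCODE M21 transcripts and RefSeq windows (GRCm38.p6) were joined by gene name only.

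Counts were fitted with edgeR 4.0.16 in R 4.3.3 (filterByExpr with a minimum count of 10, TMM, quasi-likelihood test, condition as the only term, Benjamini-Hochberg adjustment over all genes tested). The standard error is the log2 fold change over the root of F. DESeq2 1.42.0 and limma-voom (limma 3.58.1) were alternatives, as were other scalings, filters, a replicate block and leaving out each library. The prior added to log2 normalized CPM was 0.5. Near-identical copies were found with blastn 2.17.0. Ratios were compared by an exact permutation test over libraries.

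Genes named are the 9 genes, Cnot1, at most 3 per list by smallest p, the 3 most like the called gene with the largest change, genes overlapping a member and near-identical copies. Outside that rule, and with their values seen, the rest of the short poly(A)-binding and La-related lists, Eif4g1 and the genes said to be named for a call or its absence were also named. The genes and lists were chosen with earlier results of these data known. Replicates correlated across genes with Pearson's r of 0.995 in each group, and they differed beyond counting noise (chi-square per degree of freedom 6.26 and 5.27). No column was left unused (0).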

Additional observations from a re-analysis of the deposited data

How the results depend on the processing

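The 3 genes called lower were also 3 in number under DESeq2 size factors, upper-quartile scaling, no filter, at least 1 CPM in 2 libraries, DESeq2 and limma-voom. Whether libraries with the same replicate number were made together is not given in the sources used here. The deviations of replicate 1 from its group mean correlated at -0.00565 between the groups, which does not settle this. With the replicate block 3 of the 9 were lower and 0 higher, with 2524 higher and 2431 lower of all genes. With library totals, 0 of the 9 were lower and 1 higher, 1567 of all genes were lower, the partners had 2 higher and 1 lower, the deadenylases 1 higher and 0 lower, and nuclear polyadenylation 3 higher and 4 lower, while Pabpc1 turned to 0.030 and Larp4 to 0.019. The share of calls that were higher went from 50.5% to 71.8%. With no filter on low counts, 1303 of all genes were higher and 1450 lower, the partners had 0 higher, the deadenylases 0 lower, and nuclear polyadenylation 0 higher and 5 lower. Upper-quartile scaling and the 1 CPM filter each gave 2 partners higher. At the threshold of the study's methods, applied to edgeR values in place of the study's DESeq2 values, 0 of the 9 were lower, with 1121 of all genes higher and 326 lower.

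Leaving out 1 library left a lone library assumed to vary like the other group. Over these 4 fits the members lower ranged from 0 to 2, all genes higher from 743 to 1439 and lower from 871 to 1463. Partners lower ranged from 1 to 2 and higher from 0 to 0, deadenylases lower from 0 to 1, and nuclear polyadenylation lower from 3 to 5 and higher from 0 to 0. The log2 fold change of Larp4b ranged from -0.032 to 0.073, the log2 change of the ratio of Paip1 to both inhibitors from -0.13 to 0.011, and that of Pabpn1 to Pabpc1 from -0.36 to 0.063. With 2 libraries per group, changes near those of the 9 genes are at the edge of what the test calls. For each of these shifts, the cause was not tested.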
